A study of Mus musculus with 14 samples.

Results

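The insulin-like growth factor (IGF) genes considered here are 10 of the 23337 genes in the deposited count tables. They are the ligand genes Igf1 and Igf2, the receptor genes Igf1r and Igf2r, and the binding protein genes Igfbp2, Igfbp3, Igfbp4, Igfbp5, Igfbp6 and Igfbp7. They were listed by name and chosen by measured values, since Igfbp5 had been seen to be higher in the cerebellum of Thap1 conditional knockout (cKO) mice. The members' cerebellar genotype values are therefore given as a description with no p-values, and nothing is read from how many members passed the threshold there. Adjusted p-values of other genes in that comparison are printed, although the gene lists were also chosen with earlier results of these data known. RNA sequencing was done on striatum and cerebellum from Thap1 cKO mice and wildtype (WT) littermates. Striatum gave n = 3 libraries per genotype, and cerebellum n = 4 libraries per genotype. All 14 samples were from mice aged 6 months on the C57Bl/6 background. THAP1 binds DNA through a zinc finger, and mutations in its gene underlie the inherited dystonia DYT6. Which Cre line was used, which exons it removed and in which cells is not given in the sources used here. They also leave unsaid whether replicates came from different mice, and p-values here refer to the spread among these libraries, which may be technical.

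IGF1 and IGF2 are secreted growth factors that signal through the receptor tyrosine kinase IGF1R to PI3 kinase, AKT and MAP kinases, and in the brain they act on neuronal growth and survival and on oligodendrocytes. IGF2R, also the cation-independent mannose 6-phosphate receptor, carries lysosomal enzymes and clears IGF2 from the cell surface. The IGF-binding proteins hold the ligands in the extracellular space and either prolong or block their action. In the adult brain Igf2 is known chiefly from meninges, choroid plexus and vessels rather than from neurons.

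The libraries held 12659013 to 14258141 counts in cKO striatum, 12595941 to 13499875 in WT striatum, 19860775 to 28099205 in cKO cerebellum and 19458954 to 24331760 in WT cerebellum. Levels are CPM, read counts scaled to a common library size, on library sizes adjusted by TMM, a trimmed-mean scaling, over all 14 libraries. The targeted gene Thap1 ranged from 4.02 to 8.14 CPM in cKO striatum, against 13.99 to 16.4 CPM in WT striatum (adjusted p = 0.0562, edgeR). It ranged from 6.51 to 7.39 CPM in cKO cerebellum, against 7.81 to 10.05 CPM in WT cerebellum (adjusted p = 0.0488, edgeR). Of 10 granule cell markers all were lower in WT striatum than in WT cerebellum, and the striatal projection neuron markers summed to 8203 to 10809 CPM in WT striatum, against 261 to 317 CPM in WT cerebellum. Striatal WT replicate 1 stood apart from its group. A chi-square test of its counts against each of the remaining WT striatal libraries gave 28.6 and 28.2 per degree of freedom, while those libraries gave 6.79 with each other. Its meningeal fibroblast markers summed to 137 CPM, against 36.0 and 40.2 CPM. Results in striatum are therefore also given without it. Oligodendrocyte markers were lower in cKO mice in both regions. They summed to 5008 to 6218 CPM in cKO striatum, against 7860 to 9576 CPM in WT striatum, and 4 of 10 fell. They summed to 4238 to 4774 CPM in cKO cerebellum, against 4901 to 5426 CPM in WT cerebellum, and 7 of 10 fell. Of 10 astrocyte markers 4 rose and 2 fell in cKO cerebellum, and 0 were called in striatum (3 at an unadjusted p under 0.05, 2 by DESeq2). Their part in the results on the IGF genes was not tested. In whole tissue, fewer cells of a type and less RNA per cell cannot be told apart.

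The 10 genes lie on 7 chromosomes (GENCODE vM21 on GRCm38, the assembly also called mm10). Igfbp2 (chromosome 1, 72824503 to 72852474, plus strand) and Igfbp5 (chromosome 1, 72857932 to 72874884, minus strand) are neighbours that point towards each other, with 5457 bases between their 3′ ends. Igf2 (chromosome 7, 142650766 to 142666816, minus strand) shares 98 exon bases, 1.71% of its exon length, with the antisense gene Igf2os, which the count tables call Igf2as. It also shares 62.8% of its exon length with Gm49394, a protein-coding gene on the same strand that has no row of its own in the tables. Exons of Igfbp7 (chromosome 5, 77349240 to 77408041, minus strand) overlap those of the opposite-strand gene Polr2b over 85 bases, 7.03% of its exon length. Airn crosses Igf2r (chromosome 17, 12682406 to 12769664, minus strand) on the opposite strand without sharing exon bases. The sources used here do not state whether counting used strand, so the counts of Igf2 and Igfbp7 are uncertain to that extent.

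The promoter windows of Igfbp5, Igf1 and Igf2 are printed because these are the 3 members whose levels did not overlap between genotypes in cerebellum. Each runs from 250 bases before to 50 bases after a transcription start in RefSeq on GRCm38.p6, 5′ to 3′ on the strand of the gene. Capitals mark TNNGGCA on either strand (TGCCNNA on the printed strand when reversed), a sequence built on the GGCA core that the DNA-binding domain of THAP1 prefers in vitro. The windows are chr1:72874816-72875115 (minus strand) for Igfbp5, chr10:87860861-87861160 (plus strand) for Igf1 and chr7:142661222-142661521 (minus strand), 1 of 4 Igf2 windows, for Igf2.
Igfbp5: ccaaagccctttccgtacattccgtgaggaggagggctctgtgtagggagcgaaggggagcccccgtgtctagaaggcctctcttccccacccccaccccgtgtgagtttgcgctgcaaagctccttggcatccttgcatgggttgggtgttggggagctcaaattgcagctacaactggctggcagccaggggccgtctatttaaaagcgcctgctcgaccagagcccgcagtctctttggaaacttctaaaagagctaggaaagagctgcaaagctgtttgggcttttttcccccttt
Igf1: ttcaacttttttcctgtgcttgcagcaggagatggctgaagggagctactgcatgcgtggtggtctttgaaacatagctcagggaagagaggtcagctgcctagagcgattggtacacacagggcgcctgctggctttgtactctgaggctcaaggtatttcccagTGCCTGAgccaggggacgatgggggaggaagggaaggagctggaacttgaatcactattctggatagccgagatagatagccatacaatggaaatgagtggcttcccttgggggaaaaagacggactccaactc
Igf2: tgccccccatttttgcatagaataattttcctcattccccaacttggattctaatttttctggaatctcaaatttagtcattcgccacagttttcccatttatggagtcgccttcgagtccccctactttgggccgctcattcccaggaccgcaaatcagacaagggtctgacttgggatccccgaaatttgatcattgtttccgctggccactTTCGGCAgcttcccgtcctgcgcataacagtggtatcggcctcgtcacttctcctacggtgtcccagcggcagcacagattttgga
The Igfbp5 window held no match and the Igf1 window 1. Of the 4 Igf2 windows 1 held a match, and only that window is printed. All 10 members had a window, 14 in total, of which 3 held the sequence, the third being that of Igfbp6. Over all 32851 windows the share was 40.0%. A match is a description of these letters and not a binding site.

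Within each group the members were ordered by CPM per kilobase of annotated exon, which allows levels of different genes to be compared. Igfbp5, a binding protein secreted into the extracellular matrix, had the highest level in all 4 groups. It stood at 39.5 ± 2.92 CPM per kb in cKO striatum (SD, n = 3), 33.1 ± 3.32 in WT striatum (n = 3), 63.5 ± 1.31 in cKO cerebellum (n = 4) and 41.8 ± 1.131 in WT cerebellum (n = 4). Its range did not overlap that of the next gene in any group. Igf1 had the lowest level in all 4 groups, at 0.402 ± 0.133, 0.565 ± 0.142, 1.54 ± 0.116 and 1.25 ± 0.0506 CPM per kb in the same order of groups, and its range lay below that of its neighbour in each. Between these ends the order differed by region. In WT striatum Igfbp4, Igfbp7, Igfbp6 and Igf2 followed Igfbp5, each overlapping its neighbour in range. In WT cerebellum Igf2 and Igfbp2 followed Igfbp5, with overlapping ranges, and Igfbp4 was ninth of 10 without overlap with either neighbour. Igf2 exceeded Igf1 per kilobase by a mean ratio of 35.9 ± 11.03 in cKO striatum, 15.1 ± 6.55 in WT striatum, 21.3 ± 4.42 in cKO cerebellum and 15.8 ± 1.77 in WT cerebellum (SD). Igf1r over Igf2r gave 0.844 ± 0.0428, 1.09 ± 0.105, 0.707 ± 0.0281 and 0.714 ± 0.0448 in the same order.

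**Figure D1:**
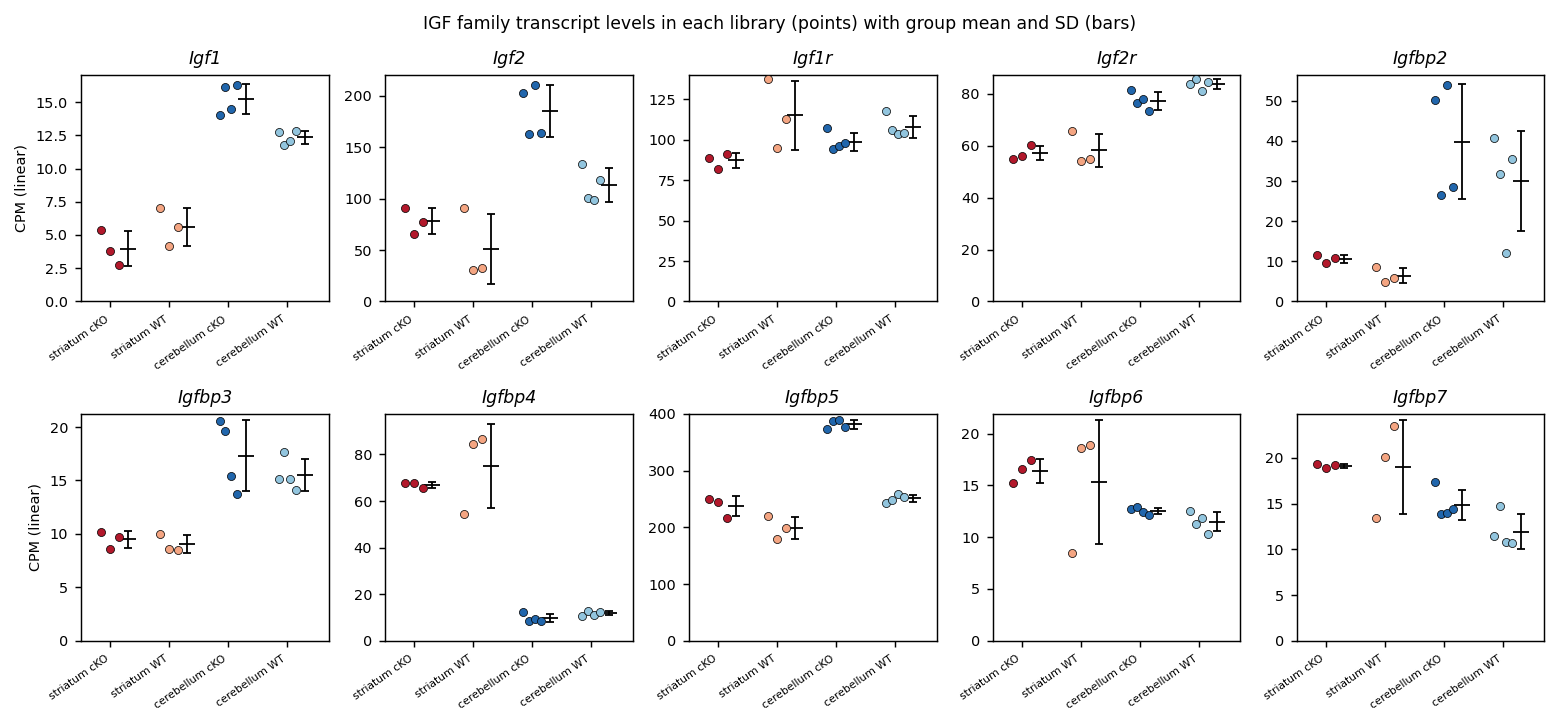
CPM on a linear axis from 0 (vertical) of the 10 IGF family genes in striatum cKO, striatum WT, cerebellum cKO and cerebellum WT (horizontal), with 1 point per library and a bar for the group mean and SD. The 4 cKO cerebellar libraries of Igfbp5 sit between 373 and 389.5 CPM, above the WT cerebellar libraries at 243 to 259 CPM, and striatal WT replicate 1 is the lone high Igf2 point and the lone low Igfbp6 point of its group.

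The summed level of the 6 binding protein genes was 94.0 ± 2.31 CPM per kb in cKO striatum, 86.1 ± 9.83 in WT striatum, 116 ± 9.01 in cKO cerebellum and 85.9 ± 6.29 in WT cerebellum (SD, n = 3, 3, 4 and 4). Igfbp5 made up 41.9 ± 2.13% of that sum in cKO striatum, 39.1 ± 8.09% in WT striatum, 54.8 ± 4.34% in cKO cerebellum and 48.9 ± 5.10% in WT cerebellum. The share of Igfbp5 overlapped between genotypes in both regions, at 50.0 to 58.6% in cKO cerebellum and 44.7 to 56.2% in WT cerebellum. Igfbp4, which in most assays inhibits IGF action, held 16.1 ± 0.168% in cKO striatum and 19.6 ± 2.88% in WT striatum. In cerebellum its share was 1.87 ± 0.246% in cKO and 3.12 ± 0.281% in WT.

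**Figure D2:**
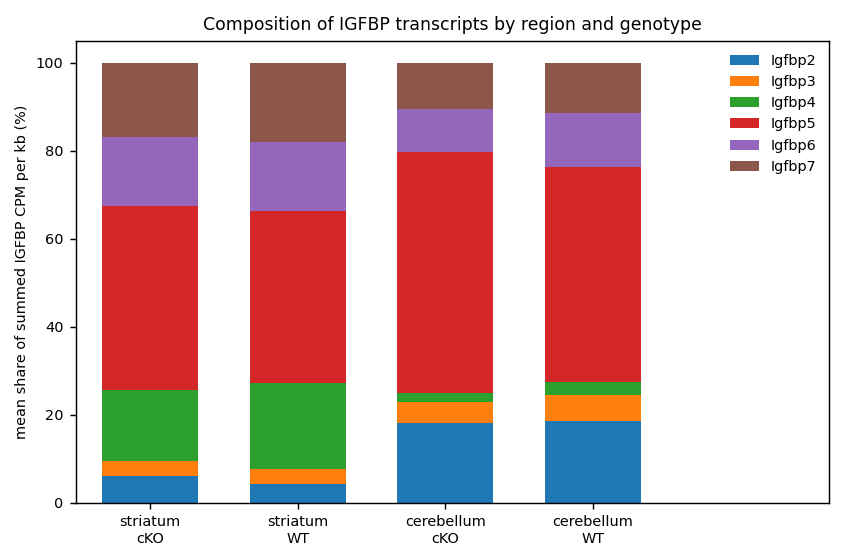
Mean share (%, vertical axis from 0) of each IGFBP gene in the summed CPM per kb of the 6 IGFBP genes, as stacked bars for striatum cKO, striatum WT, cerebellum cKO and cerebellum WT. Igfbp5 is the largest part of every bar, and Igfbp4 takes 19.6% of the WT striatal bar and 3.12% of the WT cerebellar bar, while Igfbp2 takes 4.19% and 18.6%.

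WT striatum was compared with WT cerebellum to see how the level of each member differs between these dissected tissues. By edgeR's quasi-likelihood test with Benjamini-Hochberg adjustment over 15031 genes, 2 members were higher and 6 lower in WT striatum at an adjusted p under 0.05. Of all genes tested 64.2% passed, 31.5% higher and 32.7% lower, so a share of 8 in 10 is near the background. The regions did not overlap in 7 members, 1 higher and 6 lower in WT striatum, against 65.8% of all genes, 31.3% higher and 34.5% lower. The members' median log2 fold change was −0.42, against −0.032 over all genes tested. Region, library depth and any difference in handling go together in this comparison and cannot be told apart. Markers of choroid plexus (7 of 10 called) and of meningeal fibroblasts (9 of 12 called) were also lower in WT striatum. Their part in the members' regional differences was not tested.

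Of the ligands, Igf1 had 6.996, 4.18 and 5.62 CPM in WT striatum, against 12.7, 11.8, 12.05 and 12.8 CPM in WT cerebellum. The regions did not overlap (log2 fold change −1.14 with an SE of 0.16, adjusted p = 0.000196, edgeR). Igf2 had 90.8, 30.7 and 32.5 CPM in WT striatum, against 134, 101, 98.7 and 118 CPM in WT cerebellum. All WT striatal libraries were lower, and replicate 1 came close to the lowest cerebellar library (log2 fold change −1.13, SE 0.36, adjusted p = 0.0235, edgeR). The Igf2 call was lost without striatal WT replicate 2 (−0.86, adjusted p = 0.0799) or replicate 3 (−0.88, adjusted p = 0.0704), and without a low-count filter (adjusted p = 0.0613). Among receptors Igf2r was lower in WT striatum, at 65.6, 54.3 and 54.8 CPM, against 83.9, 85.8, 81.0 and 84.4 CPM in WT cerebellum (log2 fold change −0.52, SE 0.085, adjusted p = 0.000449, edgeR). Igf1r did not pass (adjusted p = 0.499, edgeR), with 115 ± 21.4 CPM in WT striatum, against 108 ± 6.72 CPM in WT cerebellum (SD, n = 3 and 4).

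The binding protein genes differed in both directions between the regions. Igfbp4 was the member with the widest regional difference, at 54.4, 84.3 and 86.8 CPM in WT striatum, against 10.8, 12.6, 11.2 and 12.5 CPM in WT cerebellum. The regions did not overlap, and its level in WT striatum was 637% of that in WT cerebellum (log2 fold change 2.67, SE 0.15, adjusted p = 2.51e-07, edgeR). Igfbp7, an IGFBP-related protein of vessel walls that binds IGFs weakly, was also higher in WT striatum (log2 fold change 0.68, SE 0.19, adjusted p = 0.00963, edgeR), with overlap between 13.5, 20.1 and 23.5 CPM in WT striatum and 11.5, 14.8, 10.8 and 10.7 CPM in WT cerebellum. Igfbp2 was lower in WT striatum, at 8.64, 4.96 and 5.79 CPM, against 40.7, 31.7, 12.1 and 35.5 CPM in WT cerebellum (log2 fold change −2.21, SE 0.42, adjusted p = 0.00164, edgeR). One WT cerebellar library, replicate 3, had far less Igfbp2 than the others. Igfbp3 (log2 fold change −0.77, adjusted p = 0.000358, edgeR) and Igfbp5 (−0.33, adjusted p = 0.00521, edgeR) were also lower in WT striatum. Igfbp6, which prefers IGF2 over IGF1, averaged 15.3 ± 5.94 CPM in WT striatum, against 11.5 ± 0.920 CPM in WT cerebellum (SD, n = 3 and 4), and did not pass (adjusted p = 0.145, edgeR). Without striatal WT replicate 1 it passed, with a log2 fold change of 0.70 (adjusted p = 6.70e-05, edgeR).

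**Figure D3:**
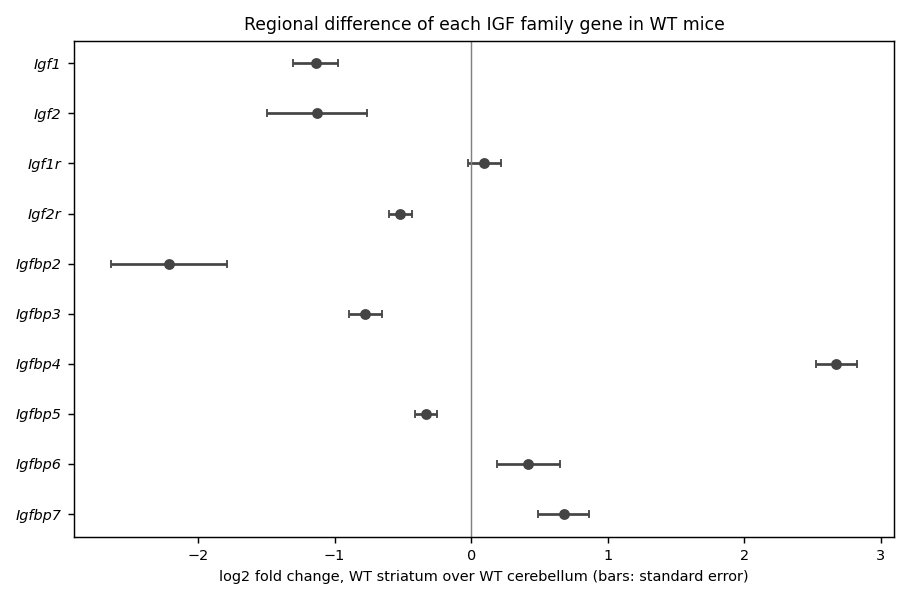
Log2 fold change of WT striatum (n = 3) over WT cerebellum (n = 4) on the horizontal axis for each IGF family gene (rows), with points for the estimate and bars for its standard error. Igfbp4 lies farthest to the right at 2.67 and Igfbp2 farthest to the left at −2.21.

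In the cerebellum the genotype comparison asked which transcripts differ when Thap1 is deleted, and Igfbp5 was the clearest difference in this family. The cKO libraries had 373, 387, 389.5 and 376 CPM of Igfbp5, against 243, 249, 259 and 253 CPM in the WT libraries. The genotypes were far apart and the libraries of each genotype close together. The cKO mean was 152% of the WT mean, a log2 fold change of 0.62 (SE 0.034). Between 5065 and 11099 reads per library stood behind these levels. This difference was among the values by which the family was chosen, so no p-value is attached to it or to the other members in this comparison.

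Both ligand genes were also higher in cKO cerebellum. Igf2 had 203, 163, 211 and 164 CPM in cKO cerebellum, against 134, 101, 98.7 and 118 CPM in WT cerebellum, with no overlap and a log2 fold change of 0.73 (SE 0.14). The antisense gene Igf2as, on 3 to 19 reads per cerebellar library, had 0.892, 0.611, 0.731 and 0.509 CPM in cKO and 0.335, 0.344, 0.261 and 0.119 CPM in WT. Its level was far below that of Igf2 in every library, and both were higher in cKO. Igf1 had 13.995, 16.1, 14.5 and 16.3 CPM in cKO cerebellum, against 12.7, 11.8, 12.05 and 12.8 CPM in WT cerebellum, again without overlap, with a log2 fold change of 0.32 (SE 0.072). Igf1 is known in the adult brain from scattered neurons and from microglia, whose 10 markers summed to 211 to 226 CPM in cKO cerebellum and 196 to 217 CPM in WT cerebellum, with 0 of 10 called by edgeR or DESeq2 (3 had an unadjusted p under 0.05). The part of microglia in the Igf1 value was not tested.

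Igfbp5, Igf1 and Igf2 were the 3 members in which the genotypes did not overlap in cerebellum, higher in cKO, as in 5.06% of all genes, and 0 members lay wholly lower, as 9.35% of all genes did. The same 3 of 10 passed the threshold used in the other comparisons, which 7.59% of all 14775 genes passed and 2.63% passed higher. Nothing is read from these shares, since this comparison chose the family. With 1 library left out, the log2 fold change ran from 0.60 to 0.64 for Igfbp5, from 0.66 to 0.81 for Igf2 and from 0.28 to 0.35 for Igf1. The members' median log2 fold change was 0.24, against 0.0044 over all genes tested.

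In the remaining 7 members the genotypes overlapped in cerebellum. Igf1r averaged 98.7 ± 5.65 CPM in cKO cerebellum and 108 ± 6.72 CPM in WT cerebellum, a log2 fold change of −0.12 (SE 0.049). Igf2r averaged 77.4 ± 3.39 CPM in cKO and 83.8 ± 2.00 CPM in WT (SD, n = 4 each; log2 fold change −0.10, SE 0.039), and 1 cKO library overlapped the WT range. Igfbp7 had 17.3, 13.9, 13.97 and 14.4 CPM in cKO cerebellum, against 11.5, 14.8, 10.8 and 10.7 CPM in WT cerebellum, and WT replicate 2 lay within the cKO range (log2 fold change 0.33, SE 0.11). Igfbp4 had 12.3, 8.46, 9.39 and 8.51 CPM in cKO, against 10.8, 12.6, 11.2 and 12.5 CPM in WT, where cKO replicate 1 alone lay within the WT range (log2 fold change −0.28, SE 0.11). Igfbp3 and Igfbp6 had log2 fold changes of 0.17 (SE 0.13) and 0.14 (SE 0.074). Igfbp2 had the widest scatter, with 50.1, 26.5, 54.0 and 28.5 CPM in cKO and 40.7, 31.7, 12.1 and 35.5 CPM in WT (log2 fold change 0.42, SE 0.43).

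In striatum, whose values the rule for choosing the members does not name, the same comparison was tested. None of the 10 members passed edgeR's quasi-likelihood test, and DESeq2 also called 0. This test had little power for small changes in striatum. In simulated counts it recovered 11.2% of 1.4-fold and 79.6% of 2-fold changes there, against 67.7% and 91.8% in cerebellum. At an unadjusted p under 0.05 there were 3 members, Igfbp2, Igf1r and Igfbp5, and 1020 of all 14080 genes tested. At an adjusted p under 0.05, 0.384% of these 14080 genes were called, 0.0639% higher and 0.320% lower. The members' median log2 fold change was 0.037, against 0.0024 over all genes tested. Igfbp5 had 249.7, 244 and 217 CPM in cKO striatum, against 219, 179.5 and 198 CPM in WT striatum. The genotypes overlapped by 1 library each, and the log2 fold change of 0.25 (SE 0.10) did not pass (adjusted p = 0.651, edgeR; 0.0810 to 0.835 under the other settings and 0.129 to 0.971 with 1 library left out).

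Igfbp2 had 11.6, 9.51 and 10.9 CPM in cKO striatum, against 8.64, 4.96 and 5.79 CPM in WT striatum. All cKO libraries were above all WT libraries, as in 7.05% of all genes, but the difference did not pass (log2 fold change 0.72 with an SE of 0.22, adjusted p = 0.415, edgeR). Choroid plexus markers summed to 211, 53.5 and 197 CPM in the same cKO libraries, against 61.6, 40.0 and 52.0 CPM in the WT libraries. Igf1r had 88.5, 82.0 and 90.8 CPM in cKO striatum, against 137, 94.9 and 112 CPM in WT striatum. All cKO libraries were below all WT libraries, as in 7.98% of all genes (log2 fold change −0.40, SE 0.13, adjusted p = 0.485, edgeR). Igf1 had 5.38, 3.79 and 2.76 CPM in cKO striatum, against 6.996, 4.18 and 5.62 CPM in WT striatum, on 33 to 81 reads per library (log2 fold change −0.48, SE 0.29, adjusted p = 0.764, edgeR). The remaining members had log2 fold changes between −0.17 for Igfbp4 and 0.60 for Igf2.

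Striatal WT replicate 1 decided several of these values. Igf2 had 90.8, 65.5 and 77.7 CPM in cKO striatum, against 90.8, 30.7 and 32.5 CPM in WT striatum, so the overlap came from that library alone. Without it 3 members were called by edgeR, where 0.856% of all genes tested were: Igf2 and Igfbp2 rose (log2 fold changes of 1.31 and 0.99, adjusted p of 0.00337 and 0.0201) and Igfbp4 fell (−0.35, adjusted p = 0.0481). With all libraries the log2 fold change of Igf2 was 0.60, with an SE of 0.37 (adjusted p = 0.767, edgeR), and that of Igfbp4 −0.17 (adjusted p = 0.812, edgeR). Igfbp6 and Igfbp7 changed sign without it, to −0.19 and −0.18 (adjusted p = 0.716 for both, edgeR). That library had 8.46 CPM of Igfbp6, against 18.6 and 18.9 CPM in the other WT striatal libraries.

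**Figure D4:**
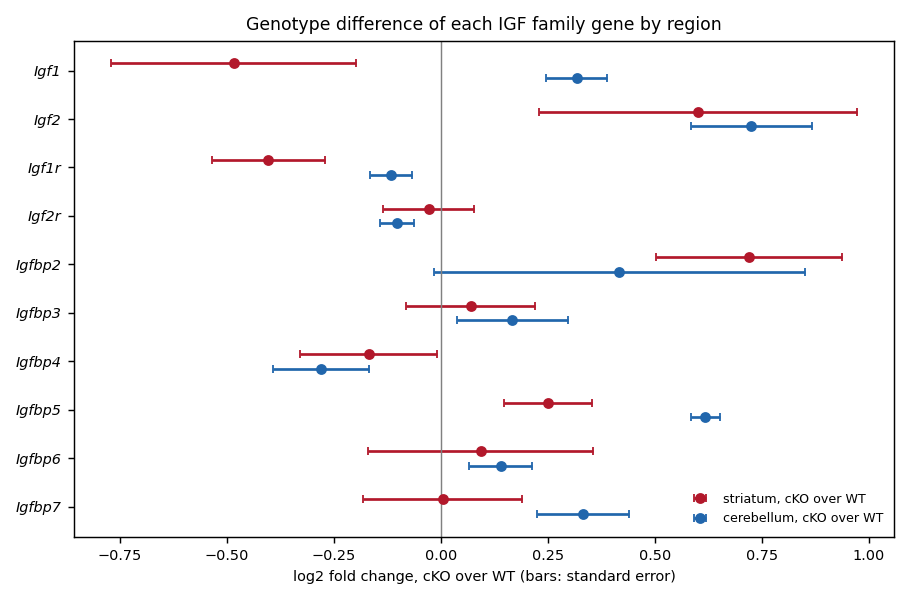
Log2 fold change of cKO over WT (horizontal axis) for each IGF family gene (rows) in striatum (red, n = 3 per genotype) and cerebellum (blue, n = 4 per genotype), with points for the estimate and bars for its standard error. The Igfbp5 points lie at 0.25 and 0.62, and the Igf1 points lie on opposite sides of 0 at −0.48 and 0.32.

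The genotype effects of the regions were set against each other as cerebellar minus striatal log2 fold change in 1 model of all 14 samples. Igfbp5 had a difference of 0.35 (SE 0.094) and Igf1 of 0.78 (SE 0.25). For Igf1 the cKO mean was 71.0% of WT in striatum and 123% of WT in cerebellum. For Igf2 the difference was 0.10 (SE 0.44), which became −0.59 without striatal WT replicate 1. The cerebellar values are part of these differences, so they are a description. The model called 0 of 10 members, where 0.390% of 15401 genes were called. With DESeq2, and without striatal WT replicate 2, Igfbp5 was called. Over all genes DESeq2 called 131 higher and 97 lower of 14202, and edgeR without that library 131 and 62 of 15535. Nothing is read from the Igfbp5 call, since its cerebellar value helped to choose the family. At an unadjusted p under 0.05 there were 2 members, and 1793 of all 15401 genes tested.

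Levels of some members were set beside the content of meningeal or choroid plexus transcripts in each library. Igfbp2, which is abundant in choroid plexus epithelium and leptomeninges, tracked the summed level of 10 choroid plexus markers, of which the thyroxine carrier Ttr is by far the most abundant. These markers summed to 3511, 729, 3253 and 815 CPM in cKO cerebellum, against 2174, 1329, 43.2 and 2151 CPM in WT cerebellum. In cKO cerebellum replicates 1 and 3 were high in both the markers and Igfbp2, and in WT cerebellum replicate 3 was the lowest in both. With group means removed, the Pearson r of log2 levels was 0.93 over 14 libraries, 0.96 without striatal WT replicate 1 and 0.98 over the 8 cerebellar libraries. The markers' part in the Igfbp2 values was not tested. Of the 10 choroid plexus markers 0 were called in cerebellum by edgeR or DESeq2 and 0 had an unadjusted p under 0.05, and all 10 had positive log2 fold changes with a median of 0.23. In striatum 0 of 7 measured ones were called by edgeR or DESeq2 (1 at an unadjusted p under 0.05), all 7 were positive and the median was 0.90. No choroid plexus marker was at 0 in all libraries of a group.

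Igf2 is shown beside both marker lists. The 12 meningeal fibroblast markers summed to 245, 228, 222 and 211 CPM in cKO cerebellum, against 203, 196, 184 and 165 CPM in WT cerebellum. The genotypes did not overlap in this sum, and 2 markers rose by edgeR's test (6 were called by DESeq2), the collagen gene Col1a2 (log2 fold change 0.37, adjusted p = 0.00116) and Ranbp3l (0.35, adjusted p = 0.0426). In the cerebellum 11 of the 12 markers had positive log2 fold changes, with a median of 0.32. In striatum they summed to 79.6, 37.0 and 49.3 CPM in cKO and 137, 36.0 and 40.2 CPM in WT, and 10 of 11 measured markers had negative log2 fold changes, with 0 called by edgeR or DESeq2 and 0 at an unadjusted p under 0.05. The r of Igf2 with this sum, with group means removed, was 0.91 over 14 libraries, 0.60 without striatal WT replicate 1 and 0.27 over the cerebellar libraries. With the choroid plexus sum it was 0.37, 0.72 and 0.73. Over the same sets of libraries it was −0.79, −0.062 and −0.21 with microglial markers, and 0.24, −0.48 and −0.84 with Purkinje cell markers. The cKO cerebellar library with the least choroid plexus signal (729 CPM) had 163 CPM of Igf2. The WT cerebellar library with the most (2174 CPM, WT replicate 1) had 134 CPM of Igf2. In meningeal markers this cKO library was the higher of the pair, at 228 CPM, against 203 CPM in WT replicate 1. The part of either tissue in the Igf2 difference was not tested.

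**Figure D5:**
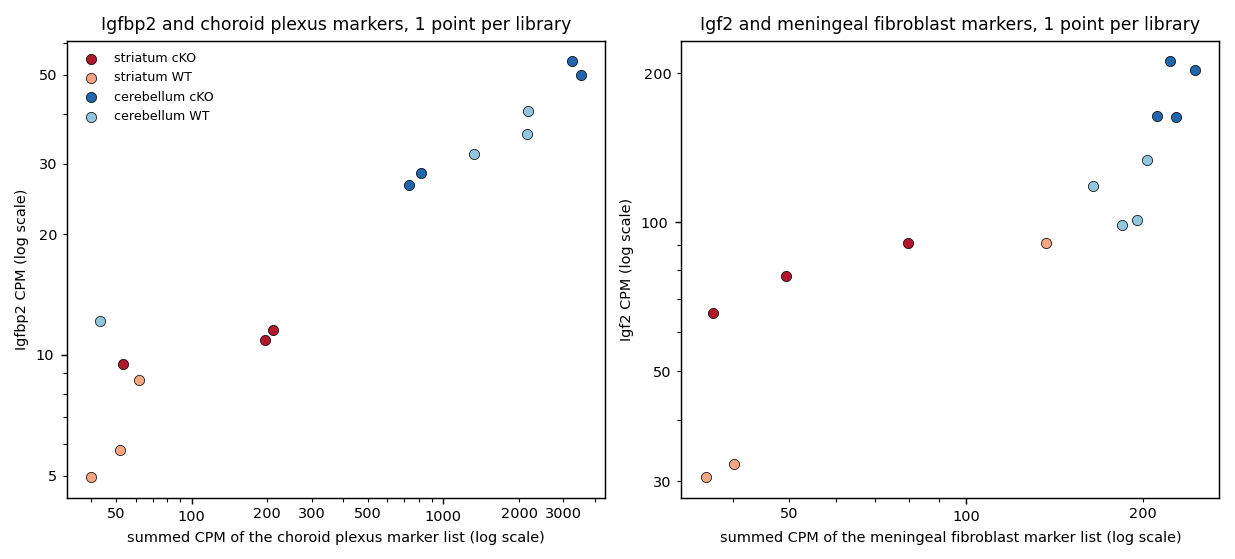
Igfbp2 CPM against the summed CPM of choroid plexus markers, and Igf2 CPM against the summed CPM of meningeal fibroblast markers, 1 point per library on log axes, coloured by striatum cKO, striatum WT, cerebellum cKO and cerebellum WT. The WT cerebellar library with 43.2 CPM of choroid plexus markers has 12.1 CPM of Igfbp2, next to the striatal libraries, and striatal WT replicate 1 lies at 137 CPM of meningeal markers and 90.8 CPM of Igf2.

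Igfbp5 did not follow the choroid plexus markers, with an r of −0.17 over 14 libraries and −0.60 over the cerebellar libraries. Its r with meningeal markers was 0.65 over 14 libraries, 0.20 without striatal WT replicate 1 and −0.49 over the cerebellar libraries. With oligodendrocyte markers it was 0.66, 0.54 and 0.44 over the same sets of libraries. Igfbp7 had an r of 0.89 with microglial markers over 14 libraries, 0.72 without striatal WT replicate 1 and 0.74 over the cerebellar libraries. Its r with striatal projection neuron markers was 0.89, 0.78 and 0.95, and with granule cell markers −0.22, −0.025 and −0.97. The projection neuron markers summed to only 261 to 317 CPM in the cerebellar libraries, so the 0.95 rests on a low signal. With mural cell markers the r of Igfbp7 was 0.16, 0.29 and 0.012, and with endothelial cell markers −0.0092, 0.50 and 0.46. The 14 points share their groups' libraries and depths, and these values are descriptions. Among 14057 genes with a mean of at least 1 CPM, the pattern most like that of Igfbp5 over the 14 group-centred libraries was that of the synaptotagmin gene Syt13 (r = 0.96), followed by Lingo4, Mfap4, Alpk2 and Esrrb (0.92 to 0.95). For Igf2 it was the sulphate transporter gene Slc13a4 (0.98), followed by Ncoa3, Dennd4c, Med1 and Vps37a. For Igfbp2 they were Abca4, Tmem72, Wdr86, Enpp2 and Rbm47 (0.96 to 0.97), of which Enpp2 encodes autotaxin, a secreted product of choroid plexus. For Igfbp7 they were Pdlim7, Crip2, Arhgdig, Fth1 and Pdlim4. Without striatal WT replicate 1 the r with Slc13a4 was 0.89 and that of the other 4 genes named with Igf2 was 0.79 to 0.84. Without that library the r of Igfbp5 with Syt13 was 0.93, and with the other genes named 0.87 to 0.90. The genes named with Igfbp7 had 0.83 to 0.87 without it, against 0.93 to 0.95 over 14 libraries. Those named with Igfbp2 had 0.96 to 0.98 without it.

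Of 39 measured genes of the IGF1 receptor's signalling pathway, 0 rose and 4 fell in cKO cerebellum by edgeR's test, where 4.96% of all genes fell, and 35 did not pass. They were Pik3r1 and Pik3r2, regulatory subunits of PI3 kinase, Irs2, the insulin receptor substrate that links IGF1R to PI3 kinase, and Foxo4, a transcription factor inhibited by AKT. Pik3r1 averaged 161 ± 3.60 CPM in cKO cerebellum and 188 ± 4.71 CPM in WT cerebellum (SD, n = 4 each; log2 fold change −0.21, adjusted p = 0.000451, edgeR). Irs2 averaged 42.8 ± 2.10 CPM in cKO and 51.1 ± 3.87 CPM in WT (−0.24, adjusted p = 0.0114, edgeR). Foxo4 fell by 0.23 and Pik3r2 by 0.17 on the log2 scale. DESeq2 called 5 of the list. At an unadjusted p under 0.05 were 12 of the 39, and 3327 of all 14775 genes tested. The list's median was −0.028, against 0.0044 over all genes. In striatum 0 of 40 were called by edgeR or DESeq2 (2 at an unadjusted p under 0.05), and the median was −0.035.

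Lists that bear on ligand supply and on the sorting role of IGF2R held few called genes between genotypes. Of 7 genes of growth hormone signalling, the input that drives Igf1 in liver, 0 were called in striatum by edgeR or DESeq2 (2 at an unadjusted p under 0.05). In cKO cerebellum 1 fell, the transcription factor gene Stat5b, to 83.3 ± 1.495 CPM in cKO against 93.6 ± 3.56 CPM in WT (SD, n = 4 each; log2 fold change −0.15, adjusted p = 0.0136, edgeR). Of 15 genes that set IGF availability (insulins and their receptors, further binding proteins, proteases of binding proteins and their inhibitors, and IGF2 mRNA-binding proteins) 6 were measured in cerebellum and 8 in striatum. By edgeR and DESeq2 0 were called in either region, with 0 in cerebellum and 1 in striatum at an unadjusted p under 0.05. Of 11 genes of mannose 6-phosphate sorting, 0 were called in either region by edgeR or DESeq2, with 3 in cerebellum and 0 in striatum at an unadjusted p under 0.05. Between the WT regions 7 of 9 availability genes, 5 of 7 growth hormone genes, 3 of 11 sorting genes and 28 of 40 signalling genes were called, where 64.2% of all genes were. Pappa, the metalloprotease that cuts IGFBP4 and IGFBP5, averaged 1.44 ± 0.725 CPM in WT striatum, against 13.6 ± 2.15 CPM in WT cerebellum (SD, n = 3 and 4; log2 fold change −3.24, adjusted p = 5.57e-06, edgeR), opposite in direction to Igfbp4. Stc1, which encodes an inhibitor of that protease, averaged 9.04 ± 3.67 CPM in WT striatum, against 0.385 ± 0.258 CPM in WT cerebellum (4.59, adjusted p = 1.81e-05, edgeR). The growth hormone receptor gene Ghr was higher in WT striatum, at 16.6 ± 0.827 CPM, against 6.44 ± 0.428 CPM in WT cerebellum (1.37, adjusted p = 1.84e-06, edgeR). Of the 40 signalling genes 18 were higher and 10 lower in WT striatum, against 31.5% and 32.7% of all genes, with Foxo1 (log2 fold change 2.66) and Pik3r3 (−2.10) among them.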

How the data were processed

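The deposited files give raw read counts for each gene symbol, 1 file per sample for 14 samples, with no rows for unassigned reads. The submitters' processing notes name cutadapt 1.13, STAR, HTSeq 0.6.1p1, DESeq2 and build mm10. The sources used here do not name the annotation or the strand setting. Counts were tested with edgeR 4.0.16 in R 4.3.3, using TMM factors, filterByExpr with a minimum count of 10 and a minimum total of 15, a robust quasi-likelihood fit and Benjamini-Hochberg adjustment over all genes tested, with calls at an adjusted p under 0.05. Standard errors were obtained from the log2 fold change and the F statistic. Genotypes were fitted within a region, WT regions with each other, and the difference of genotype effects in all 14 samples. WT samples enter both the region and the genotype comparisons. The code was tested on simulated counts. DESeq2 1.42.0 was an alternative.

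The members and gene lists were chosen with earlier results of these data known. All 10 members are reported, with some of the called genes of the lists and the 5 genes most alike for 4 members. Exon lengths are unions of GENCODE vM21 exons, and promoters are from RefSeq. Hras was read as its older symbol Hras1. Same-numbered replicates were not treated as pairs.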

Additional observations from a re-analysis of the deposited data

Results flagged for a closer look

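Of 20 groups of 4 cerebellar libraries, 2 had 1 library far from the other 3, where chance flags about 1 in 20. Igfbp7 in cKO cerebellum stood at 17.3 CPM in replicate 1, against 13.9 to 14.4 CPM in the other cKO libraries. Igf1r in WT cerebellum stood at 118 CPM in replicate 1, against 104 to 106 CPM in the other WT libraries. Without cKO replicate 1, the cerebellar log2 fold change of Igfbp7 was 0.25 and that of Igfbp4 −0.41.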

How the results depend on the processing

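Alternatives were upper-quartile or DESeq2 scaling, a mean CPM of at least 1 or no filter on low counts, DESeq2, a replicate block, a sex score, all 14 samples in 1 model, and each library left out. The number of members past the threshold in cerebellum, from which nothing is read, was 3. It was 1 with all 14 samples in 1 model and 4 with DESeq2 (Igfbp7 in addition). It was 3 with the sex score (Igfbp7 in place of Igf2) and 2 to 3 with 1 library left out. Calls over all genes moved as well. The main fit called 388 higher and 733 lower of 14775, against 72 and 179 of 15401 with all 14 samples in 1 model. DESeq2 called 414 and 822 of 13213, and the sex score 460 and 824 of 14775. In striatum the number of members past the threshold was 0, and 0 to 3 with 1 library left out (3 without WT replicate 1). For the difference between regions it was 0, 1 with DESeq2 and 0 to 1 with 1 library left out. Between WT regions it was 8, and 7 to 9 with 1 library left out. With the replicate block 2 cerebellar members were called and Igf2 was not, 8 remained called between WT regions and 0 in striatum. Under the block the cerebellar minus striatal genotype effects of Igf2 and Igfbp6 were −0.039 and −0.024, against positive values without it. Same-numbered striatal libraries had correlated deviations (r of 0.234, 0.130 and 0.0862), each best with its own number, while of 4 cerebellar cKO libraries 1 matched its own number best. The cause was not tested. With 1 library left out, log2 fold changes that changed sign ran from −0.077 to 0.071 (Igf2r), −0.19 to 0.27 (Igfbp6) and −0.18 to 0.18 (Igfbp7) in striatum, and from −0.067 to 0.22 for Igf1r between WT regions. The regional differences of genotype effects ran from −0.59 to 0.37 (Igf2), −0.0084 to 0.18 (Igfbp3), −0.26 to 0.062 (Igfbp4) and −0.14 to 0.33 (Igfbp6). Under the settings that keep all libraries, 300 values of members kept direction and call, 3 gained a call, 5 lost one and 2 changed sign. Striatal Igf1 rested on 33 to 81 reads per library, which limits its precision. Marker correlations without striatal WT replicate 1 or in cerebellum alone were added after seeing the data.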
